A study of Mus musculus with 12 samples.

Results

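The smooth muscle contractile genes described here are 7 mouse genes, Acta2, Tagln, Cnn1, Myh11, Smtn, Smtnl1 and Des, found on the arrays through the accession of each probe. Of 18749 genes with a symbol on the arrays, these 7 were represented by 10 of 41174 probes, and all 7 were among the 19180 features (1 probe per gene, or an unnamed probe) bright enough to be tested. Acta2, Tagln, Cnn1, Myh11, Smtn and Des were taken for their function, as genes whose expression in smooth muscle has been reported to depend on Kdm3a together with the coactivator myocardin. Smtnl1 was chosen by its lower signal in the mutants of both sexes, so its mutant and control values are given as a description, with no test. The cells came from male and female embryos of embryonic day 11.5 and fall into 4 groups (control males, mutant males, control females and mutant females), each of 3 single embryos. Controls were heterozygous and mutants homozygous for a mutant Jmjd1a allele (Jmjd1a is the older symbol of Kdm3a), so the controls also carry 1 mutant copy and no wild-type group was analysed here. All embryos carried the Nr5a1/CD271 transgene, which puts the surface protein CD271 on cells in which Nr5a1 regulatory sequence is active, and cells of the gonads and adjoining mesonephroi were pulled out with magnetic beads against CD271. The cells were thus selected on the transgene and not on a smooth muscle marker, and each array averages over all the cells recovered from 1 embryo.

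Smooth muscle contracts when myosin, built on the heavy chain encoded by Myh11, pulls on thin filaments of alpha smooth muscle actin, encoded by Acta2. Transgelin (Tagln), calponin (Cnn1) and smoothelin (Smtn) bind those filaments, smoothelin-like 1 (Smtnl1) is a relative of smoothelin known from smooth and skeletal muscle, and desmin (Des) is the intermediate filament protein of muscle cells. Many of these genes are activated by serum response factor (Srf), which binds a short element called the CArG box, and by myocardin (Myocd), which joins Srf and raises its activity. Kdm3a removes methyl groups from lysine 9 of histone H3. In the fetal testis, smooth muscle actin later marks the myoid cells around the cords and the vessel walls, but embryonic day 11.5 precedes the formation of cords.

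Between 58.0% and 65.2% of the spots of an array were well above background, and precision is limited throughout by 3 arrays in a group. Kdm3a itself was lower in mutants by 1.95 in males and 2.27 in females on the log2 scale, and its second probe rose well above background on each of the 6 control arrays but on 0 of the 6 mutant arrays. The labels do not say where these probes lie relative to the mutation, and a probe outside the mutated part would not check the genotype. All 8 markers of gonadal somatic cells on the list used (Nr5a1, Wt1, Gata4, Lhx9 and others) were well above background on all 12 arrays. The 6 members taken for function were also above background on all 12 arrays with their representative probe, the brightest of each gene. Smtnl1 was so on 11, all but mutant female 1. Levels below are log2 signals after subtraction of the log2 75th percentile of that array. They compare arrays for 1 probe and say nothing of the amount of one gene's RNA against another's. Each of 3 slides carried 4 arrays: mutant male 1 shared slide 1 with all control males, and control female 3 shared slide 3 with all mutant females, which left mutant males 2 and 3 and control females 1 and 2 on slide 2.

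Smtnl1 (probe A_51_P359424) had by far the widest range of group means among the 7 genes. Its choice by a lower signal in mutants favours that rank, which is no separate result. Its level was -2.64, -2.46 and -2.98 for the 3 control males, against -4.61, -3.78 and -4.00 for the 3 mutant males. Values for control females were -2.37, -2.28 and -2.90, and those for mutant females -5.16, -4.68 and -5.07. Every mutant array was below every control array, in each sex, where 20.3% of all features in males and 12.7% in females had groups without overlap. The group means differed by -1.43 in males, which is 2.70-fold lower in mutants, and by -2.45 in females, 5.48-fold lower. Within the slides that held both genotypes the differences were -1.91 in males (1 mutant against 3 controls) and -2.07 in females (3 mutants against 1 control). Smtnl1 is dim, and its size depended on the background correction: with normexp, which adds an offset to all signals, the differences were -0.44 in males and -0.85 in females. In bulk samples, fewer cells that express a gene and less RNA per cell cannot be told apart, here and in all that follows.

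**Figure D1:**
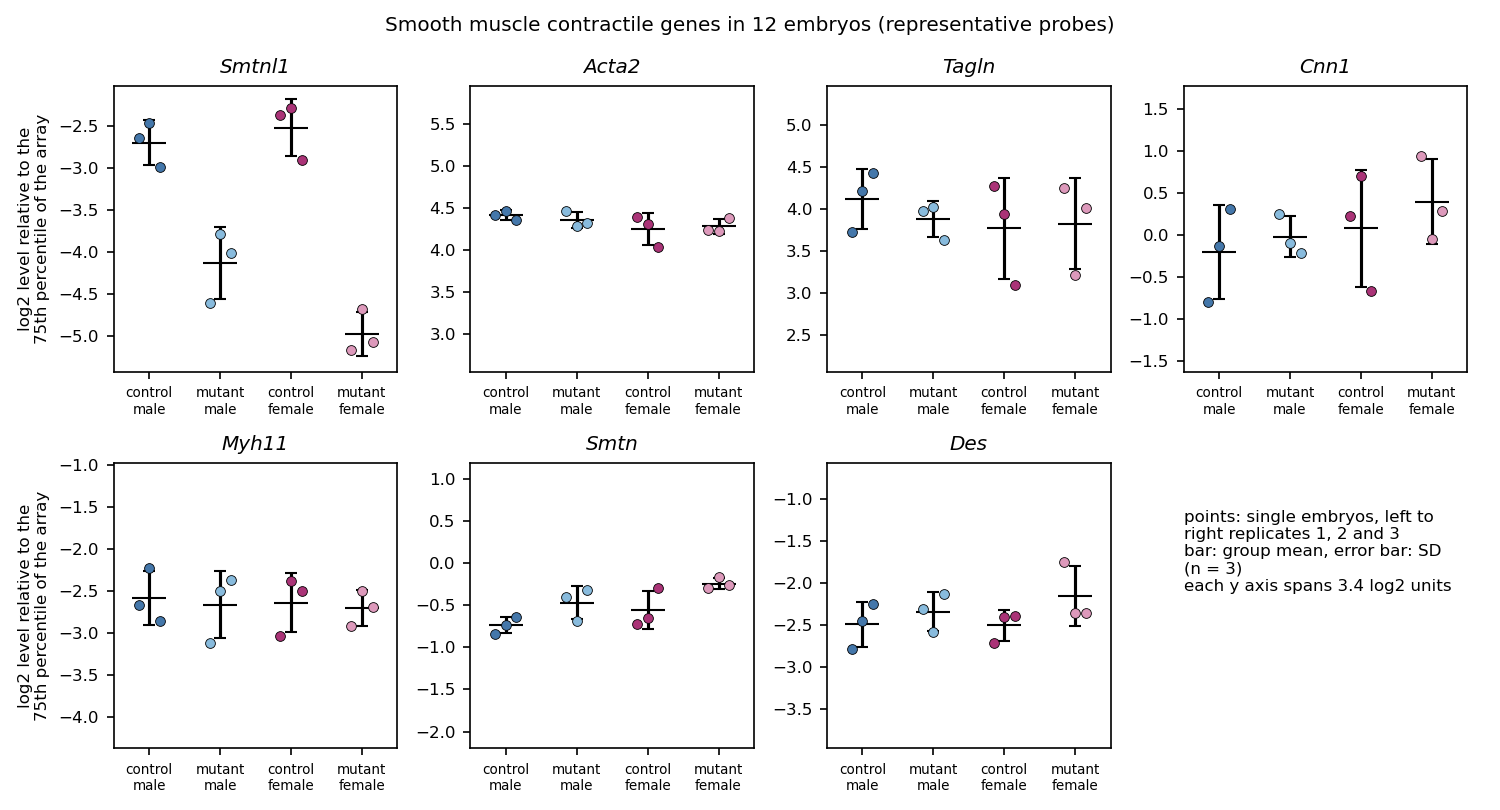
Log2 level of the representative probe of each of the 7 genes (y axis, relative to the 75th percentile of the array, each panel spanning the same number of log2 units) in the 4 groups (x axis). Points are single embryos, bars are group means and error bars are SDs (n = 3); the Smtnl1 points of the mutants, between -5.16 and -3.78, lie below all its control points, between -2.98 and -2.28, while the Acta2 points stay between 4.04 and 4.47 in all groups.

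The order of the Smtnl1 group means was control females, control males, mutant males and mutant females, at -2.52 ± 0.336, -2.70 ± 0.264, -4.13 ± 0.429 and -4.97 ± 0.260 (SD, n = 3). The first pair of neighbours in that order overlapped: control males minus control females gave -0.18 ± 0.25 (SE). Mutant males lay above mutant females by 0.84 ± 0.25 (SE), 1.79-fold, with no overlap between the 3 arrays of each group. This sex difference is a description too, since Smtnl1 was chosen by its mutant values, and 22.8% of all features had groups that did not overlap in that comparison. The difference between the mutant effects of males and females was 1.02 for Smtnl1, and 1.26 to 0.85 when single arrays were left out. With the slide as a block it was 0.16. Signal near the floor differed between the mutant groups too. The second Kdm3a probe, well above background on no mutant array, averaged -6.77 in mutant males and -7.29 in mutant females. Smtnl1 was well above background on 2 of the 3 mutant female arrays. The part of the floor in its differences between the sexes was not tested.

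The sequence before the annotated start of Smtnl1 is set here beside those of Acta2 and Cnn1, because the CArG box is the element through which myocardin and Srf are known to act on the smooth muscle genes. RefSeq promoter sequences (GRCm38.p6) matched 5 of the 7 genes, Acta2, Cnn1, Smtn, Smtnl1 and Des. The 250 bases that end just before the start are given for chr19:34255374-34255623 (minus strand), chr2:84822653-84822902 (minus strand) and chr9:22099003-22099252 (plus strand). Capitals mark matches to the CArG box in which 1 base of its central A or T stretch may differ; the pattern reads the same on both strands.
Acta2: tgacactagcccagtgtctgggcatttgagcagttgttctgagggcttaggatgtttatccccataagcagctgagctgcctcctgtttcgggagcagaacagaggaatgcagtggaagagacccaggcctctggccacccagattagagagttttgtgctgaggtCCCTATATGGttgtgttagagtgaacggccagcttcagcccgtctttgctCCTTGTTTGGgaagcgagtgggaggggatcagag
Smtnl1: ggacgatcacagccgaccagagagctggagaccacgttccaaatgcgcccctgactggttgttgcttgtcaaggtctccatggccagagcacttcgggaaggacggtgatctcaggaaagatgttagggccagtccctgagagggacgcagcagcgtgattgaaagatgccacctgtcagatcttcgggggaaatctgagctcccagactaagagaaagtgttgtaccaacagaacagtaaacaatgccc
Cnn1: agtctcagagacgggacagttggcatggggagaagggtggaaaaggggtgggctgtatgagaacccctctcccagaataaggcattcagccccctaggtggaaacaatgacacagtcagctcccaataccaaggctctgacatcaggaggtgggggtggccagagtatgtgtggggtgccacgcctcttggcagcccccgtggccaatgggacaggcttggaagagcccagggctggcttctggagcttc
No exact CArG box was in any of the 5 windows, and 1.47% of 32851 RefSeq promoters held one in a window of this length. With 1 base allowed to differ, 8.59% of promoters held a match and 0.670% held at least 2. Acta2 held 2, CCCTATATGG at 84 to 75 bases and CCTTGTTTGG at 34 to 25 bases before the start, and the windows of Smtnl1, Cnn1, Smtn and Des held none. These matches describe the letters of the windows and do not show binding, and elements farther away or inside the genes were not searched.

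Acta2, the thin filament actin of smooth muscle, was nearly constant on its brightest probe (A_51_P450957). The levels were 4.42, 4.47 and 4.36 for control males, against 4.47, 4.29 and 4.32 for mutant males. Among females, controls had 4.40, 4.31 and 4.04 and mutants 4.24, 4.23 and 4.38. The groups overlapped in both sexes. The mutant effect was -0.05 ± 0.12 (SE) in males (limma adjusted p = 0.808) and 0.03 ± 0.12 in females (limma adjusted p = 0.887). The 95% intervals, -0.32 to 0.21 and -0.23 to 0.30, leave room for changes of that size. The second Acta2 probe (A_52_P420504) varied more between single arrays: it read 2.10, 3.18 and 3.16 for control males, against 2.71, 3.16 and 2.91 for mutant males. The control females were at 3.11, 3.35 and 2.03, against 3.42, 2.23 and 2.82 for the mutant females. Within each group of controls and of mutant females it spread over more than 1 log2 unit, against 0.44 over all 12 arrays for the first probe. The remaining Acta2 probe (A_52_P210078) was dim, between -5.54 and -2.70, and was not well above background on control male 1. The 3 probes of Acta2 thus disagree on how much this gene varied between embryos.

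Tagln, which encodes an actin-binding protein of smooth muscle, had 2 probes that followed each other closely. The brighter one (A_51_P450527) read 3.72, 4.21 and 4.42 for control males, against 3.98, 4.02 and 3.63 for mutant males. Values for control females were 4.27, 3.93 and 3.10, and those for mutant females 4.25, 3.21 and 4.01. The control and mutant ranges overlapped in both sexes, and the lowest array was control female 3, with mutant female 2 next. The estimated difference, mutant minus control, was -0.24 ± 0.33 (SE) in males (limma adjusted p = 0.691) and 0.06 ± 0.33 in females (limma adjusted p = 0.935). The second probe (A_52_P517683) spanned -0.70 to 0.69, and its lowest and next lowest arrays were the same as those of the first.

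Cnn1 (probe A_51_P350817), the gene of the calponin that restrains actomyosin in smooth muscle, had the widest range over the 12 embryos after Smtnl1, on the representative probes. Its levels were -0.80, -0.13 and 0.31 for control males, against 0.25, -0.09 and -0.22 for mutant males. Among females, controls had 0.22, 0.70 and -0.67 and mutants 0.94, -0.05 and 0.29. The control groups each spanned more than the difference between any 2 group means. Mutant minus control was 0.19 ± 0.38 (SE) in males (limma adjusted p = 0.789) and 0.31 ± 0.38 in females (limma adjusted p = 0.681). The 95% intervals reached from -0.65 to 1.02 in males and from -0.53 to 1.15 in females, so they include increases of about 1 log2 unit.

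Myh11 (probe A_51_P362429), the myosin heavy chain of mature smooth muscle, showed the same overlap of all groups. It read -2.67, -2.22 and -2.86 for control males, against -3.12, -2.50 and -2.36 for mutant males. The control females were at -3.03, -2.38 and -2.50, against -2.92, -2.50 and -2.69 for the mutant females. The 4 group means lay between -2.70 and -2.58, closer to each other than the 3 arrays within any group. The mutant effect was -0.08 ± 0.25 (SE) in males (limma adjusted p = 0.865) and -0.06 ± 0.25 in females (limma adjusted p = 0.900).

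Smtn (probe A_51_P479786), which encodes smoothelin of contractile smooth muscle cells, was on average higher in mutants in both sexes, without passing the threshold. It read -0.83, -0.73 and -0.64 for control males, against -0.40, -0.69 and -0.32 for mutant males. Values for control females were -0.72, -0.65 and -0.29, and those for mutant females -0.29, -0.17 and -0.26. Mutant male 2 fell among the control males, and in females the groups met at control female 3 and mutant female 1 without overlapping. The estimated difference, mutant minus control, was 0.27 ± 0.14 (SE) in males (limma adjusted p = 0.435) and 0.32 ± 0.14 in females (limma adjusted p = 0.478). With array weights Smtn passed in both sexes, at 0.36 (limma adjusted p = 0.0436) and 0.39 (limma adjusted p = 0.0176), in fits that called 2853 and 5805 of the 19180 features. Within slides the Smtn difference was 0.34 in males and 0.06 in females.

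Des (probe A_51_P335969), the gene of desmin, was also on average higher in mutants without passing the threshold. It read -2.79, -2.45 and -2.25 for control males, against -2.31, -2.59 and -2.13 for mutant males. Among females, controls had -2.72, -2.41 and -2.39 and mutants -1.75, -2.36 and -2.36. The female groups did not overlap, but only mutant female 1 stood well above the controls. Mutant minus control was 0.15 ± 0.21 (SE) in males (limma adjusted p = 0.685) and 0.35 ± 0.21 in females (limma adjusted p = 0.490).

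Of the 6 genes taken for function, 0 passed the threshold in males and 0 in females, where 0.469% and 0.355% of all features did (limma, Benjamini-Hochberg adjusted p under 0.05). At an unadjusted p under 0.05 the count was 0 of 6 in males and 1 of 6 in females (Smtn), against 11.9% and 10.4% of all features. The groups did not overlap for 0 of the 6 in males and 2 of the 6 (Smtn and Des) in females, against 20.3% and 12.7% of all features. The median difference of the 6 was 0.05 in males and 0.18 in females, where the medians over all features were -0.05 and -0.05. Without control female 3, the lowest array for Tagln and for the first and second Acta2 probes, the female median of the 6 was -0.03. In that fit Tagln changed from 0.06 to -0.28 and Cnn1 from 0.31 to -0.07, while Smtn stood at 0.45 and Des at 0.41.

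**Figure D2:**
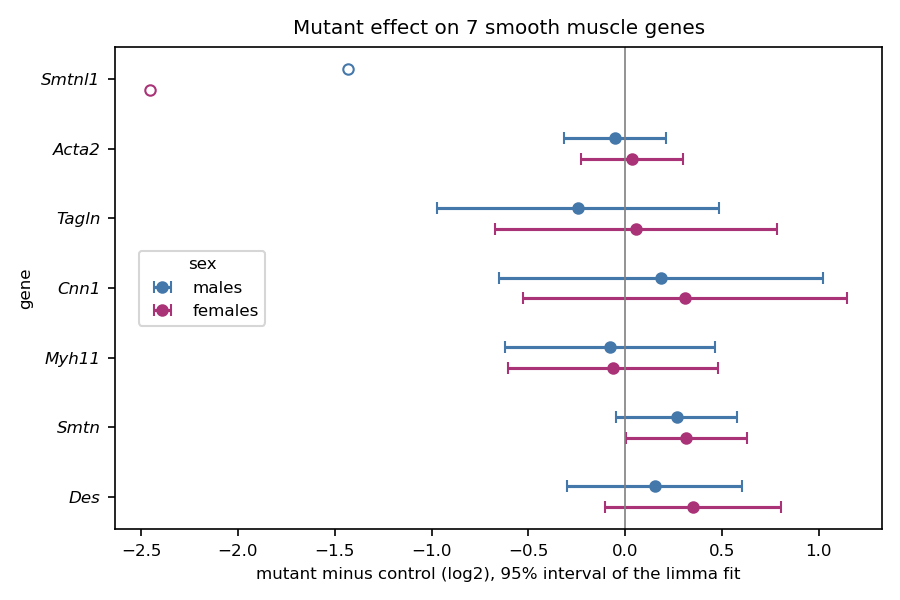
Mutant minus control (x axis, log2) for each of the 7 genes (y axis) in males and in females; filled points are limma estimates and bars their 95% intervals (n = 3 embryos per group). Smtnl1, chosen for its lower signal in mutants, is drawn as open points without intervals at -1.43 and -2.45; the other 6 estimates lie between -0.24 and 0.35, and 1 interval of the 12, that of Smtn in females (0.0025 to 0.63), does not include 0 before adjustment.

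Between the sexes, 0 of the 6 genes taken for function passed the threshold among controls, where 0.177% of all features did, and 0 of the 6 among mutants, where 0.130% did (limma). At an unadjusted p under 0.05 the counts were 0 of the 6 among controls and 0 of the 6 among mutants, against 10.8% and 11.5% of all features. Among controls, the male minus female difference ranged from -0.29 for Cnn1 to 0.35 for Tagln, and the 2 sexes overlapped for all 7 genes, where 15.9% of all features had groups without overlap. Among mutants, the groups did not overlap for 2 of the 7, Smtnl1 (higher in males) and Smtn (lower in males), against 22.8% of all features. Smtn gave -0.23 ± 0.14 (SE, limma adjusted p = 0.510). The difference between male and female mutant effects lay between -0.30 and -0.01 for the 6 genes taken for function and passed for none of them, as for 0 of all 19180 features (limma); at an unadjusted p under 0.05 it was 0 of the 6, against 3.65% of all features. No slide held both sexes of 1 genotype, so the sex comparisons have no within-slide value.

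The larger pattern in Tagln, Cnn1 and the second Acta2 probe was between single embryos rather than between groups. Their SDs within groups, pooled over the 4 groups, were 0.456, 0.528 and 0.566, where the median feature had 0.236. Larger SDs were found in 10.8%, 6.43% and 5.07% of all features. The first Acta2 probe (0.118), Smtn (0.161) and Des (0.266) were much steadier, and Myh11 (0.328) and Smtnl1 (0.329) lay between.

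Control female 3 was the lowest or next to lowest of the 12 arrays on each of the 6 probes of Acta2, Tagln and Cnn1. Mutant female 2 was among the lowest 3 arrays on 5 of those 6 probes, the exception being Cnn1. Control male 1 was the lowest for Cnn1 and the dim Acta2 probe and next to lowest for the second Acta2 probe. Mutant female 1 was the highest array for Cnn1 and the second Acta2 probe, and next to highest for the second Tagln probe. Control female 3 and both of these mutant females are on slide 3, control male 1 on slide 1. Control female 3 and mutant female 2 had the highest mean level of the 8 gonadal somatic markers, 1.82 and 2.06, where the other arrays ranged from 1.29 to 1.73. Mutant female 2 also had the lowest mean level of the 9 endothelial markers, -2.62, against -2.01 to -0.44 elsewhere. The part of these markers in the spread of Tagln and Cnn1 was not tested.

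**Figure D3:**
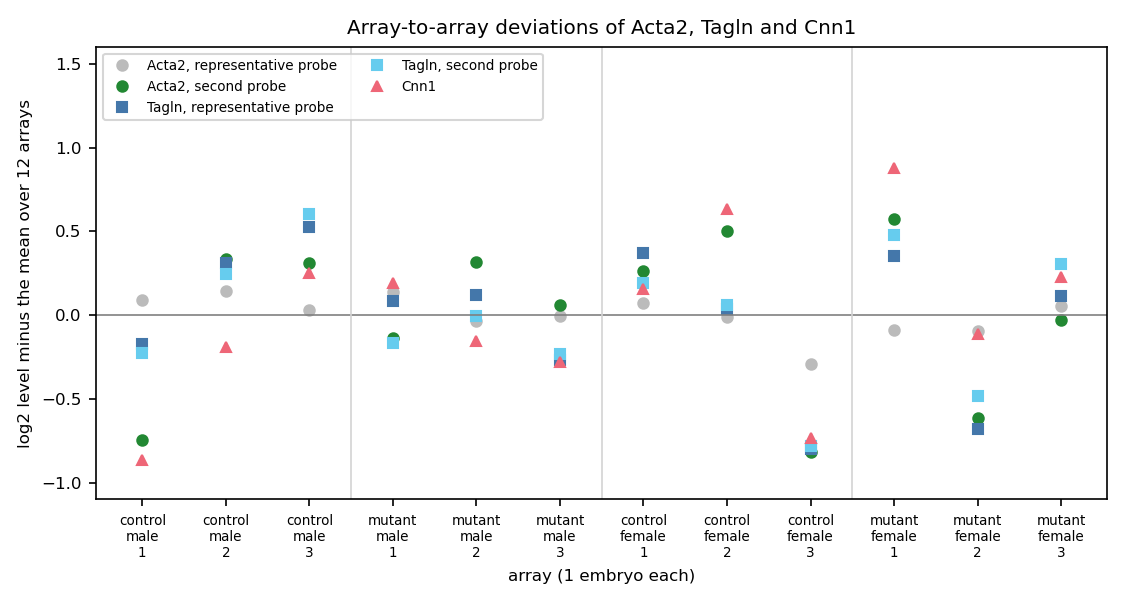
Log2 level of each probe minus its mean over the 12 arrays (y axis) for every array in its group (x axis, 1 embryo each). Tagln, Cnn1 and the second Acta2 probe fall together in control female 3, and Tagln and the second Acta2 probe in mutant female 2; the first Acta2 probe stays within 0.30 of its mean.

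Likeness between genes was measured by the root mean square difference of their centred levels over the 12 arrays, among 13207 named genes that are not members. The second Tagln probe was nearer to the first, at 0.135, than any of those genes. The second Acta2 probe was 0.314 from Cnn1, and 13 genes were nearer to Cnn1 than it was. The 5 genes nearest to Cnn1 were Acta1, Ntf3, Hoxb2, Actc1 and Dennd2c, at 0.217 to 0.288; Acta1 and Actc1 are the skeletal and cardiac muscle actins, close relatives of Acta2. For the steady first Acta2 probe the nearest were Dcun1d5, Rab5a, Bhlhb9, Raet1e and Mcm6, at 0.059 to 0.066, all genes with little variation, and Tagln stood 0.334 away, farther than 8812 genes. Near to Smtnl1 were Apoc1 (0.269), Ctnna3 (0.274), Capg (0.334) and Myl1 (0.376). Their mutant minus control differences lay between -1.84 and -1.38 in males and between -2.27 and -1.97 in females. Genes this near to Smtnl1 over these arrays must be lower in mutants too, so these differences follow from the choice and are no separate result. Acta2 (first probe) was 1.05 from Smtnl1 and Cnn1 was 1.29.

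Among 30 other genes of the smooth muscle contractile apparatus and its cytoskeleton, 26 were tested, and 1 was called in males, lower in the mutants, and 0 in females (limma), against 0.469% and 0.355% of all features. At an unadjusted p under 0.05 the counts were 3 of 26 in males and 6 of 26 in females, against 11.9% and 10.4% of all features. Pln and Kcnmb1, a calcium pump regulator and a potassium channel subunit of smooth muscle, were well above background in no group. The median difference of the 26 was 0.03 in males and -0.08 in females. The gene called was Myl9, the regulatory myosin light chain of smooth muscle and of many non-muscle cells. Its levels were 7.60, 7.35 and 7.60 for control males, against 6.84, 6.78 and 6.79 for mutant males. The control females were at 7.33, 7.29 and 7.09, against 6.62, 6.77 and 6.81 for the mutant females. The controls lay above the mutants on every array of each sex, where 20.3% of all features in males and 12.7% in females had groups without overlap. The mutant effect was -0.72 ± 0.12 (SE, limma adjusted p = 0.0284) in males and -0.50 ± 0.12 (limma adjusted p = 0.160) in females. The difference between these effects was -0.22 ± 0.16 (limma adjusted p = 1.00).

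The Myl9 call in males was lost under 12 of 22 alternatives, with adjusted p from 0.00937 to 0.171 over the 22. They were quantile normalization (0.171), no filter on dim probes (0.0820), a fit of the 2 groups alone (0.0959), the replicate number as a block (0.0771), the slide as a block (0.170), and leaving out control male 1 (0.137), control male 3 (0.0827), any mutant male (0.0691 to 0.114), control female 2 (0.0531) or mutant female 3 (0.0518). The difference itself stayed between -0.80 and -0.55, and within slide 1 it was -0.68.

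Ppp1r14a, an inhibitor of myosin phosphatase in smooth muscle, was at -0.27 ± 0.11 (SE, limma adjusted p = 0.398) in males and -0.51 ± 0.11 (limma adjusted p = 0.126) in females. Its groups did not overlap in either sex, as was so for 20.3% of all features in males and 12.7% in females. Npnt, a matrix ligand of integrin alpha 8, was at 1.16 ± 0.33 (limma adjusted p = 0.220) in males and -0.34 ± 0.33 (limma adjusted p = 0.608) in females. With normexp the male difference of Npnt was 0.36. Neither passed the threshold. Of 14 close relatives of the members, 0 were called in either sex (limma), against 0.469% and 0.355% of all features in males and females, with medians of 0.18 and 0.27. At an unadjusted p under 0.05 the counts were 1 and 3 of 14, against 11.9% and 10.4% of all features. Actg2, the other smooth muscle actin, was at 0.22 and 0.40, and the non-muscle myosin heavy chains Myh9 and Myh10 were at 0.49 and 0.37, and 0.25 and 0.48, in males and females.

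The factors that act on the contractile genes were measured too. Of 21 genes of the myocardin and Srf pathway 20 were tested, and 0 were called in either sex (limma), against 0.469% and 0.355% of all features, with medians of 0.21 in males and -0.04 in females. For this pathway 0 of 20 in males and 3 of 20 in females had an unadjusted p under 0.05, where 11.9% and 10.4% of all features did. Myocd read -4.05, -3.56 and -4.11 for control males, against -3.57, -4.00 and -3.31 for mutant males. Values for control females were -3.49, -2.24 and -3.04, and those for mutant females -2.82, -3.12 and -3.62. It was well above background on 11 of 12 arrays, and its mutant minus control difference was 0.28 ± 0.32 (SE, limma adjusted p = 0.641) in males and -0.26 ± 0.32 (limma adjusted p = 0.682) in females. Control males lay below control females in Myocd by 0.98 ± 0.32, which did not pass either (limma adjusted p = 0.407). This sex difference in Myocd depended on the background correction and turned to 0.09 with normexp.

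Srf, the factor that binds the CArG box, was at 0.17 ± 0.28 (SE, limma adjusted p = 0.730) in males and 0.08 ± 0.28 (limma adjusted p = 0.879) in females. The myocardin-related coactivators Mrtfa and Mrtfb were at 0.41 and -0.21 in males and at 0.34 and -0.45 in females, and neither passed. Gata5, a GATA factor, was at 0.45 ± 0.24 (limma adjusted p = 0.434) in males and 1.00 ± 0.24 (limma adjusted p = 0.168) in females. With normexp Gata5 was at -0.09 in males and 0.01 in females, and with array weights it passed in females (limma adjusted p = 0.00608). Gata6 was at 0.28 and 0.41, and Elk4, another Srf partner, at -0.05 and -0.33. Klf4, known as a repressor of contractile genes, was at 0.74 ± 0.48 (limma adjusted p = 0.469) in males and -0.69 ± 0.48 (limma adjusted p = 0.516) in females.

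**Figure D4:**
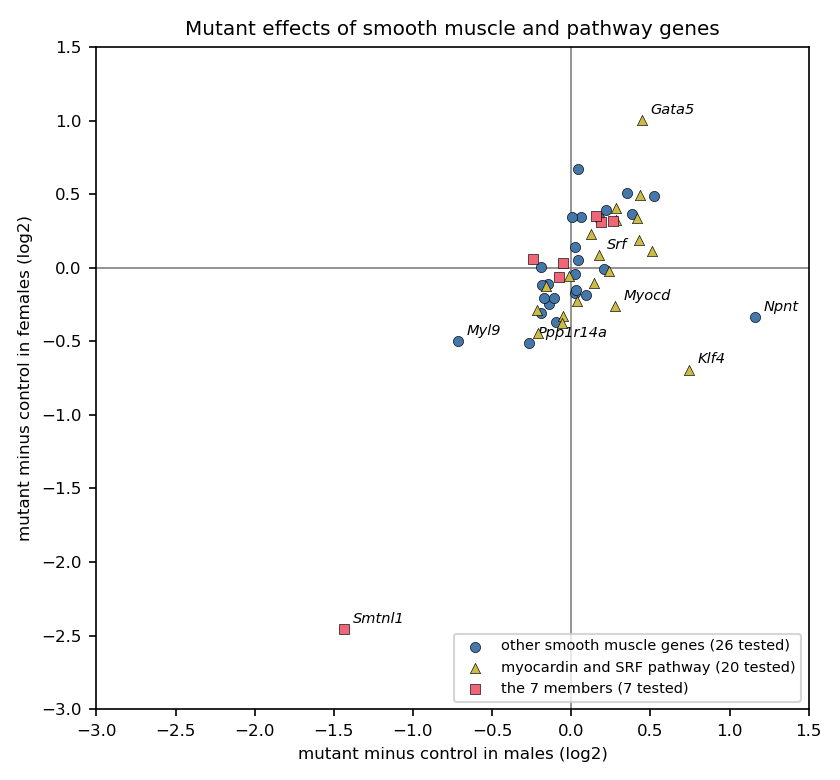
Mutant minus control in females (y axis, log2) against the same in males (x axis, log2) for the 7 genes, 26 other smooth muscle genes and 20 genes of the myocardin and Srf pathway; each point is 1 gene. Smtnl1, chosen for its lower signal in mutants, lies at -1.43 and -2.45, far from the other genes. Myl9, at -0.72 and -0.50, is lower in both sexes.

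Some striated muscle genes were lower in the same mutants in which Smtnl1 and Myl9 were low. Of 21 cardiac and skeletal muscle markers 13 were tested, and 4 (Myl7, Tnni3, Myl3 and Tnnt1) were called lower in each sex, where 0.391% and 0.349% of all features were, with differences of -2.81 to -0.73 in males and -2.93 to -0.76 in females (limma adjusted p up to 0.0348 and 0.0312). The median difference of the 13 was -0.62 in males and -0.36 in females. Higher in mutants were 1 of the 13 in males and 4 of the 13 in females, Actc1 (0.51 in females) among them. At an unadjusted p under 0.05 the counts were 8 and 4 of 13, against 11.9% and 10.4% of all features. The gene lists were chosen with earlier results of these data known, so these counts are no independent result. The mean level of the tested markers per array was -0.64 to -0.53 in control males and -1.50 to -1.24 in mutant males. It was -0.99 to -0.73 in control females and -1.52 to -1.37 in mutant females. Of the markers not tested, Myod1, Myf5, Ttn, Myh3 and Nkx2-5 were well above background on no array of any group. Myog, a myogenic factor, was so on mutant female 3 alone, and Ckm was so on some but not all arrays of each group other than mutant females, and on none of theirs. The part of these genes in the lower signal of Smtnl1 and Myl9 was not tested. The mutant minus control medians of the 8 pericyte markers were 0.31 in males and 0.28 in females, and those of the 12 mesenchymal markers 0.27 and 0.19. The 9 endothelial markers were at 0.57 and -0.45, the 9 tested mesonephric epithelial markers at 0.87 and -0.07, and the 8 gonadal markers at 0.17 and 0.25. In these 5 lists 0 genes were called in either sex (limma), where 0.469% of all features in males and 0.355% in females were. In males an unadjusted p under 0.05 was found for 4 of 9 mesonephric, 2 of 8 pericyte and 2 of 12 mesenchymal markers and for 0 of the endothelial and gonadal ones, against 11.9% of all features. In females it was found for 1 of 9 mesonephric and 2 of 12 mesenchymal markers and for 0 of the other 3 lists, against 10.4% of all features.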

How the data were processed

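Each of the 12 one-colour arrays (Cy3, linearly amplified RNA) held 1 embryo, per the labels. The sources used here do not give litters, and p-values measure the spread between these embryos. They do not measure all of the spread between slides, since all control males shared slide 1 and all mutant females slide 3. With the slide as a block, 52 features were called in males and 13 in females, in place of 90 and 68. Scans were read with Agilent Feature Extraction (submitters' processing notes), version 10.5.1.1, array design 014868 (per the file headers). The deposited processed signal is an intensity, background-subtracted by the authors' software and not scaled between arrays, per the file headers. Levels are its log2 less that of each array's 75th percentile, over non-control spots and without outlier spots. Probes were named through a RefSeq table (27479 of 41174 matched). Tested probes were well above background on every array of 1 group or more; the brightest represented its gene. Group means over 12 arrays were fitted in limma 3.58.1 (R 4.3.3), checked on simulated data, with Benjamini-Hochberg adjustment over 19180 features at 0.05. Replicate arrays correlated at 0.978 to 0.992.

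The members, gene lists and tests were chosen with earlier results of these data known. Named are all members, called list genes or otherwise the 3 with the smallest p, Myocd, Srf, Mrtfa and Mrtfb, and the 5 nearest genes of Acta2 and Smtnl1; Cnn1's nearest genes, the other list genes named and the Smtnl1 neighbours were added after their values were seen. A gene that this rule names is not reported here. Alternatives were quantile normalization, normexp (offset 50), other dim-probe filters, every probe, only the groups compared, array weights, replicate or slide blocks, array brightness as a covariate, within-slide values and leaving out each array.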

Additional observations from a re-analysis of the deposited data

How the results depend on the processing

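For the 6 members taken for function, 654 tests were made under 22 alternative settings (within-slide values have no test), and 2 of them passed the threshold: with array weights the count of members called was 1 in males and 1 in females, Smtn in both, in place of 0. In the comparisons of sex and of the mutant effects the count was 0 under every alternative run. The median of the 6 ranged from -0.08 to 0.14 in males and from -0.031 (without control female 3) to 0.32 in females when single arrays were left out, and under the other settings from -0.01 to 0.12 and from 0.08 to 0.24. Smtnl1 stayed lower in mutants in both sexes under every setting that could include it; with a filter of all 12 arrays above background it was not tested. With the mean of each group subtracted, same-numbered arrays of different groups correlated between -0.53 and 0.43 over the features. With 1 embryo of each group per number, these values cannot decide whether the replicate numbers pair the embryos. With the replicate block 62 features were called in males and 48 in females, and 0 of the 6 members. Over all features, leaving out 1 array gave 25 to 93 calls in males (90 with all arrays) and 31 to 135 in females (68), 19 to 41 for sex in controls (34) and 11 to 38 for sex in mutants (25). The other settings gave 35 to 2853, 13 to 5805, 13 to 238 and 7 to 127, the highest each time with array weights, and 0 to 8 for the difference of the mutant effects (0). The cause was not tested. Normexp shifted the median of all features to 0.11 in the control and 0.12 in the mutant sex comparison. With 1 base of the CArG box allowed to differ, the share of promoters with a match was 8.59% in place of 1.47%. The number of arrays, and for Smtnl1 and Myocd the low signal over background, limit these values.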

Other observations

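The genes beside Smtnl1 on its chromosome were measured too. Of the 5 protein-coding genes on each side in RefSeq order, 7 of 10 were tested, and 0 were called in males or in females (limma), where 0.469% and 0.355% of all features were. Their mutant minus control differences lay between -0.42 and 0.15 in males and between -0.52 and 0.25 in females. Ube2l6, a ubiquitin-conjugating enzyme gene next to Smtnl1 on one side, was at -0.42 ± 0.16 (SE, limma adjusted p = 0.373) in males and -0.52 ± 0.16 (limma adjusted p = 0.350) in females. Timm10, a mitochondrial import gene next to it on the other side, was at -0.22 ± 0.19 (limma adjusted p = 0.547) and -0.28 ± 0.19 (limma adjusted p = 0.512). These neighbours were looked at after the values of Smtnl1, a gene chosen for its lower signal in mutants, were known, and they are not compared with it.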
